A study of Bos taurus with 10 samples.

Results

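A bovine kidney was set against 6 other bovine tissues on a human expression array, to describe which transcripts read brightest in kidney. The comparison used 7 of the 10 arrays of the series, namely the array titled kidney and the 6 arrays titled brain, heart, liver, lung, muscle and spleen. All 7 held total RNA with no treatment named in the labels, with 1 array per tissue, and the labels give no breed, sex, animal number or kidney region. The word adult stands in the title of the series and in the source name of the brain sample. The other 3 arrays, of pooled RNA from embryos made by in vitro fertilization, entered the normalization and a gauge of array-to-array spread, and took no part in the contrast.

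The kidney filters blood through glomeruli and then recovers most of the filtrate along the tubule of each nephron. The proximal tubule takes back sugars, amino acids, phosphate and small proteins through a brush border, secretes organic anions and drugs, and lives mainly on fatty acids. The thick ascending limb, distal tubule and collecting duct then set the final salt, water and acid content of urine. Whole tissue was measured, so fewer cells of a type and less RNA per cell cannot be told apart in any value that follows.

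The authors deposited 1 intensity per probe set, which is a group of short probes designed for a human transcript. Each bovine transcript was therefore read through human probes and is named by a human gene symbol, and dimness can reflect weak binding of bovine sequence or little transcript. For this reason levels of different probe sets were not compared with each other. Of 22283 probe sets 10186 that were not controls had values, and 9469 of them, which stand for 6359 genes, exceeded the array median in at least 1 adult tissue and were analysed. Deposited medians were 99.2 to 183.3 over the 7 arrays and 128.3 in kidney, and all intensities given here are after quantile normalization. The ratio of 5′ to 3′ GAPDH control probe sets, a measure of RNA integrity, was 0.463 in kidney and 0.287 to 0.471 over the 7 tissues. For ACTB it was 0.629 in kidney, lowest in lung at 0.311 and highest in heart at 2.65, with muscle at 1.52. With 1 kidney array there is no replicate of kidney and no test, since an exact permutation over 7 arrays cannot give a one-sided p under 0.143. Differences are in log2(normalised intensity + 72), a scale that understates the difference of dim probe sets.

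A probe set was called kidney-high where kidney was at least 2-fold above the brightest of the 6 other tissues. There were 77 such probe sets, 0.813% of those analysed, and 19 of them were at least 4-fold above. A single probe set, 0.0106% of those analysed, was at least 2-fold below the dimmest other tissue. Kidney was the brightest of the 7 tissues for 1134 probe sets (12%) and the dimmest for 871 (9.2%), where rank alone gives 14.3% to each tissue. Against the mean of the 6 others, 426 probe sets (4.5%) were at least 2-fold higher in kidney and 189 (2%) at least 2-fold lower. Kidney thus had few probe sets of its own beside the other tissues. The same count of probe sets 2-fold above all others was 83 in spleen, 156 in lung, 204 in heart, 342 in muscle, 419 in brain and 584 in liver. Without the liver array the kidney-high count was 128.

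**Figure D1:**
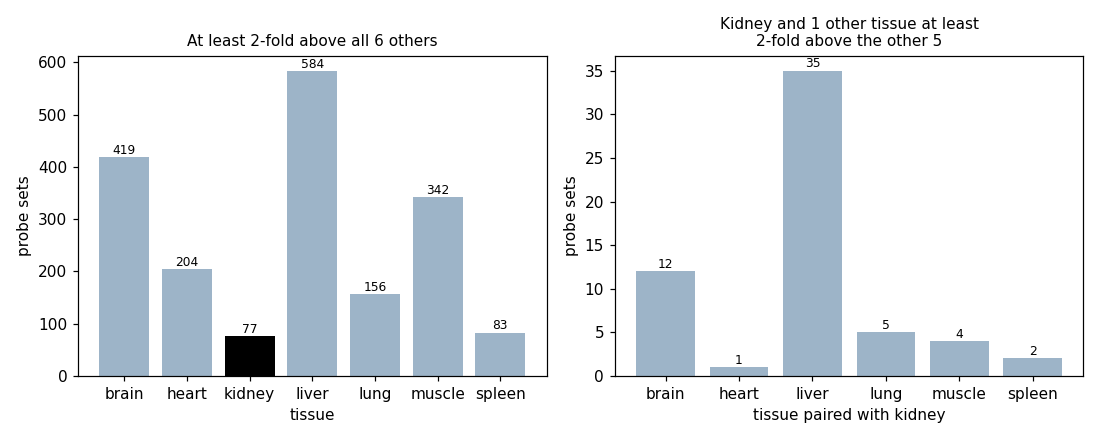
The left bars give the number of probe sets at least 2-fold above all 6 other tissues for each tissue, and the right bars the number in which kidney and 1 other tissue were both at least 2-fold above the other 5. Kidney, in black, had 77 probe sets of its own, and its most frequent partner was liver, with 35.

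The 3 embryo arrays are the only arrays that share a label, and they give a measure of how often a 2-fold difference occurs between arrays of like samples. Their median SD over the analysed probe sets was 0.156 log2, and 0.167 over the kidney-high probe sets, against a median SD of 0.503 between the 7 tissues. On the first embryo array 13 probe sets (0.137%) were at least 2-fold above both other embryo arrays, on the second 3 (0.0317%) and on the third 248 (2.62%). The third embryo array thus stood apart from the other 2. The kidney count of 77 was above those of the first and second embryo arrays and below that of the third. It was set against 6 arrays and the embryo counts against 2. Whether a second kidney array would give the same probe sets was not tested.

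The kidney-high probe sets carried 60 different symbols over 62 probe sets, and 15 probe sets had no single symbol and are not named. RefSeq's bovine gene list holds 59 of the 60 symbols, all but GOLGA8N. In 23 probe sets all 6 other tissues were below 72, the offset added before the logarithm, and 44 passed the brightness filter through kidney alone and so had to differ. The next brightest tissue was liver for 21 probe sets, brain for 16, spleen for 14, heart for 12, lung for 8 and muscle for 6. For genes counted by their brightest probe set, 53 (0.833%) were kidney-high and none was kidney-low (0%), and 1 array per tissue allows no test of either count. Kidney was brightest for 810 genes (12.7%) and dimmest for 577 (9.07%). It was at least 2-fold above the mean of the others for 309 (4.86%) and at least 2-fold below for 131 (2.06%), and the median difference over all genes was -0.03.

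PDZK1 and AQP1 were the markers chosen for the kidney label. They were chosen with earlier results of these data known, so their values describe the label and do not test it. PDZK1, a scaffold that holds transporters in the brush border, read 1143 in kidney, against 4.14 in brain, 24.6 in heart, 28.5 in liver, 14.2 in lung, 21.1 in muscle and 22.0 in spleen. Its kidney value lay 3.59 log2 (12.1-fold) above liver, the brightest other tissue, and the 6 others did not approach it. PDZK1 passed the brightness filter through kidney alone, so it had to be brightest there. AQP1, the water channel of the proximal tubule and also of endothelium, read 5038 in kidney, against 123 in brain, 2217 in heart, 293 in liver, 2964 in lung, 476 in muscle and 926 in spleen. It was brightest in kidney too, 0.75 log2 above lung, and so was not kidney-high. The other AQP1 probe set read 373 in kidney and 378 in lung, a difference of -0.02. Across the lists that mark single segments or cell types of the nephron, 15 of 63 analysed genes (23.8%) were brightest in kidney, against 12.7% of all genes. These lists were also chosen with earlier results known, so the share is a description.

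Marker lists of other tissues and cell types lay below, near or above 0 in kidney. Median differences of kidney from the mean of the others were -0.97 for 8 heart genes, -0.62 for 16 skeletal muscle genes, -0.50 for 14 brain genes and -0.24 for 7 lung genes. They were near 0 for 5 spleen and lymphocyte genes (-0.02) and above 0 for 5 endothelial genes (0.07) and 2 red cell genes (0.57). None of the brain, lung, skeletal muscle or spleen genes and 1 heart gene was brightest in kidney, against 12.7% of all genes. Adrenal markers, for the gland beside the kidney, had 5 analysed genes, none brightest in kidney, with a summed intensity of 609 in kidney and 359 to 962 in the others. For 17 liver markers the median was -0.41, none was brightest in kidney and 6 were second brightest there. How many of all genes were second brightest in kidney was not counted. Their sum was 1725 in kidney, 15700 in liver and 646 to 802 in the other 5 tissues. TF, the iron carrier transferrin, read 607 in kidney and 1953 in liver, FGG, a fibrinogen chain, 248 in kidney and 1476 in liver, and APOH, a plasma apolipoprotein, 88.4 in kidney and 1798 in liver. ALB, serum albumin, read 4.50 in kidney and 429.9 in liver, and TTR, transthyretin, 2.99 in kidney and 854 in liver, with both near 0 in kidney. The part of liver transcripts in the kidney values was not tested.

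**Figure D2:**
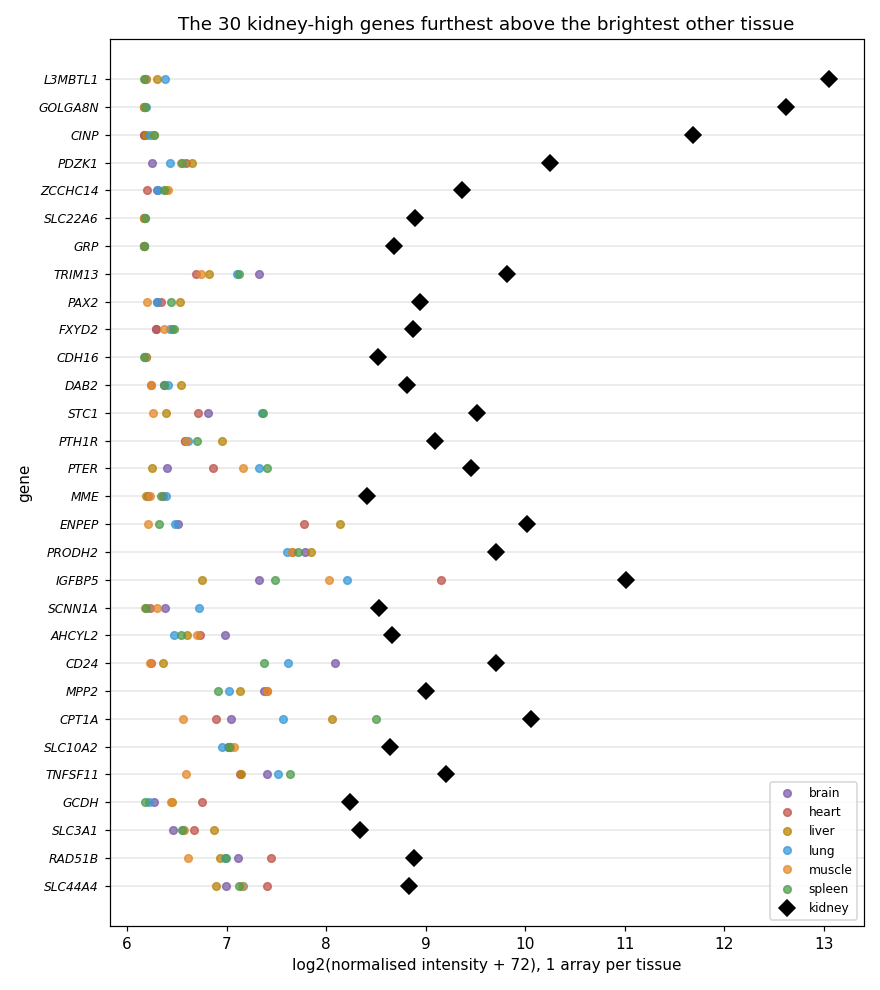
Each row is 1 of the 30 kidney-high genes furthest above the brightest other tissue, by its kidney-high probe set. The x axis gives log2(normalised intensity + 72), the black diamond is kidney and each coloured point is 1 of the 6 other tissues, 1 array each. L3MBTL1, GOLGA8N and CINP lie furthest right, and from PDZK1 down the gap to the next tissue narrows from 3.59 log2.

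The transporters and carriers of the proximal tubule gave some of the widest gaps. SLC22A6, the organic anion transporter OAT1 that takes drugs and uric acid from blood, read 404 in kidney and no more than 0.501 in any other tissue, a difference of 2.71 log2. Its value was confined to kidney among these 7 arrays. SLC22A5, the carnitine transporter, read 269.7 against 48.8 to 94.4, a difference of 1.04. SLC22A8, a further organic anion transporter, was below the brightness filter at 3.68 in kidney and 68.8 in lung. The same probe set read 715, 617 and 584 on the embryo arrays. Of the 4 analysed organic ion and drug transporters these 2 were kidney-high, SLCO2A1, a prostaglandin carrier, differed from the mean of the others by 0.18, and ABCG2, an exporter of drugs and urate, by -0.82, with liver brightest at 483. Over all genes 0.833% were kidney-high. Both kidney-high members passed the brightness filter through kidney alone, and so had to be brightest there. The median of the 4 was 0.74, against -0.03 over all genes. With a filter of at least 3 of 10 arrays the list median was -0.20.

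Amino acid transport in the proximal tubule was represented by a pair of genes. SLC7A7 is the light chain of a basolateral exporter of cationic amino acids, and it read 1186 in kidney, against 83.3 in brain, 119 in heart, 92.9 in liver, 242 in lung, 87.1 in muscle and 443 in spleen, a difference of 1.29 from spleen. SLC3A1, the heavy chain of the apical cystine transporter, read 251 in kidney against 16.0 to 45.5 in the others (1.46). These were the 2 of 12 analysed proximal solute transporters that were kidney-high, against 0.833% of all genes. The other 10 lay within 2-fold of the mean of the other tissues, as did 5919 of all 6359 genes. SLC5A2, the kidney glucose transporter SGLT2, was among those 10, with 387 in kidney and 226 to 436 elsewhere. The median of the list was 0.03, and -0.07 with the values as deposited.

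SLC4A4, the basolateral bicarbonate transporter, depended on the probe set. Its brightest probe set read 396 in kidney and 634 in brain, and another read 99.4 in kidney and 248 in liver. The third read 830.3 in kidney, 479 in brain and 117 or less in the remaining 5. SLC10A2, a bile acid transporter known from ileum and proximal tubule, read 326 against an even 52.4 to 62.8 (1.56), and was named after its values were seen.

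Of 4 analysed brush border genes 2 were kidney-high, against 0.833% of all genes. A further peptidase was kidney-high by its dimmer probe set. ENPEP, the aminopeptidase that cleaves angiotensin II, read 965 in kidney, against 19.3 in brain, 147 in heart, 211 in liver, 17.6 in lung, 2.03 in muscle and 8.17 in spleen. The second ENPEP probe set read 240.1 against 2.24 to 23.3, so both were kidney-high, at 1.87 and 1.71 log2, and it was the single gene with several probe sets that were all kidney-high. DPP4, a dipeptidyl peptidase, read 1159 in kidney and 479 in liver (1.16), and its other probe set lay 0.94 above the next tissue. MME, neprilysin, was kidney-high by a probe set that read 268 against 0.927 to 12, while its brighter probe set read 85.5 in kidney and 186 in muscle. The list median was 0.87. ALPL, alkaline phosphatase, was not high in kidney, at 39.7 against 191 in brain.

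The apical scaffold and endocytosis list gave a mixed picture below PDZK1. CUBN and LRP2, cubilin and megalin, form the receptor that takes up filtered protein. CUBN read 144 in kidney, against 99.8 in brain, 125 in heart, 194 in liver, 462 in lung, 89.5 in muscle and 808 in spleen, and LRP2 read 52.8 in kidney, against 287 in brain, 264 in heart, 34.2 in liver, 73.9 in lung, 51.2 in muscle and 100.1 in spleen. Neither was high in kidney, with differences from the mean of the others of -0.46 and -0.57. DAB2, an adaptor of megalin uptake, split between its probe sets, since the first read 378 in kidney and at most 21.0 elsewhere, and the second 35.6 in kidney and 304 in muscle. Of 9 genes 2 were at least 2-fold above the mean of the others (4.86% over all genes), PDZK1 and AQP1, and the median was 0.10. MYO6, an actin motor of apical endocytosis, named after its values were seen, read 325 in kidney, 77.4 in brain and under 10 in the other 5.

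Fatty acid oxidation was the kidney list with the highest median. Of 12 analysed genes of mitochondrial fatty acid and ketone oxidation 7 were brightest in kidney (12.7% over all genes) and 2 were kidney-high (0.833%). At least 2-fold above the mean of the others were 8 (4.86% over all genes). Their median was 1.45 log2 against -0.03 over all genes. With the values as deposited the median was 0.92, and 1.27 where a common median was set. Heart or liver, which also burn fatty acids, was next brightest for 5 of the 7 genes that were brightest in kidney.

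CPT1A, the carnitine acyltransferase that admits long-chain fatty acids to mitochondria, read 997 in kidney, against 59.8 in brain, 46.9 in heart, 194 in liver, 118 in lung, 22.8 in muscle and 289.8 in spleen. It lay 1.56 above spleen and 2.62 above the mean, and heart and muscle were low. HADH, a short-chain dehydrogenase of the cycle, read 1261 in kidney and 554 in heart, although its other probe sets differed from the mean by 0.29 and -0.37. HADHB, a subunit of the trifunctional protein, read 544 in kidney and 459.8 in liver, and ACADM, medium-chain acyl-CoA dehydrogenase, read 776 in kidney and 629 in heart. These differences from the next tissue were 0.21 and 0.27, less than 0.528, the 95th percentile of the SD over the embryo arrays.

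ACAA2, a thiolase, read 1023 in kidney and 972 in liver, and its other probe set differed from the mean of the others by 0.09. ACAT1, the thiolase of ketone metabolism, read 1399 in heart, 1143 in liver, 1120.1 in kidney and 444 in muscle, against 5.91 to 41.9 in brain, lung and spleen. BDH1, a ketone body dehydrogenase, read 331 in heart, 146 in kidney and at most 7.26 elsewhere. The 4 genes within 2-fold of the mean were HADHA, ETFB, ACADVL and BDH2, with differences of 0.31, 0.18, -0.02 and -0.09. ACAA2, BDH1 and these 4 were named after their values were seen.

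**Figure D3:**
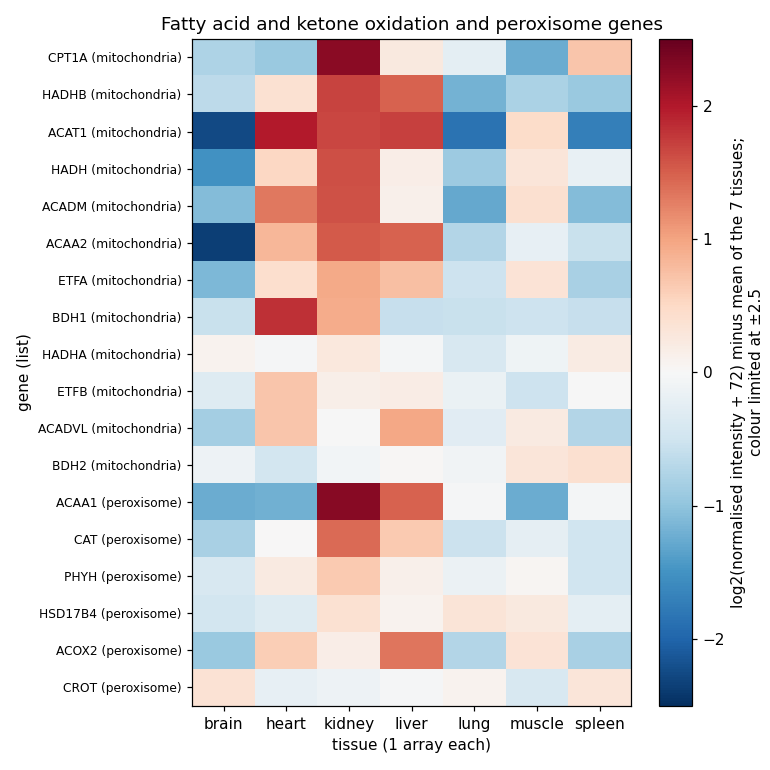
Rows are the 12 genes of mitochondrial fatty acid and ketone oxidation and 6 peroxisome genes, columns are the 7 tissues with 1 array each, and colour gives log2(normalised intensity + 72) minus the mean of the 7 tissues, limited at 2.5 either way. Kidney is red in most rows of the upper block, of mitochondrial genes, with CPT1A deepest, and heart or liver is often red beside it. In the lower block, of peroxisome genes, kidney is deepest for ACAA1.

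Peroxisomes, which shorten very long fatty acids and break down hydrogen peroxide, gave a similar but smaller shift. Of 6 genes 4 were brightest in kidney (12.7% over all genes) and none was kidney-high (0.833%). At least 2-fold above the mean of the others were 2 (4.86% over all genes), with a median of 0.60. ACAA1, the peroxisomal thiolase, read 2248 in kidney and 1251 in liver, and its other probe set 1891 in kidney and 1256 in liver. CAT, catalase, read 359 in kidney and 182 in liver. PHYH, which starts the breakdown of branched fatty acids, read 259.8 in kidney and 174 in heart. Oxidative phosphorylation did not share this pattern. None of its 31 genes was brightest in kidney, against 12.7% of all genes. All 31 lay within 2-fold of the mean of the others, as did 5919 of all 6359 genes, and the median was -0.04. Their sum was 15931 in kidney, 31886 in heart and 18384 in muscle.

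Amino acid metabolism had 7 of 21 genes at least 2-fold above the mean of the others (4.86% over all genes). None was as far below (2.06% over all genes), and the median was 0.02. GATM, which makes the creatine precursor guanidinoacetate, read 1105 in kidney, against 160.2 in brain, 75.6 in heart, 605 in liver, 79.1 in lung, 127 in muscle and 46.1 in spleen. ASS1, the enzyme that forms argininosuccinate on the way from citrulline to arginine, read 661 in kidney and 571 in liver, and at most 50.5 elsewhere. Kidney and liver were both high for these genes and the other 5 tissues low. PRODH2, the hydroxyproline dehydrogenase, was the list's kidney-high gene, at 763 against 123 to 158. ALDH6A1, of valine breakdown, read 977 in kidney and 619 in liver, and its other probe set differed from the mean by -0.27. DDAH1, which degrades methylated arginine, read 842 in kidney and 1156 in brain.

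The 4 gluconeogenesis and sugar genes all lay within 2-fold of the mean of the other tissues, as did 5919 of all 6359 genes. G6PC1, the glucose-6-phosphatase that releases glucose, read 299 in kidney and 289 in heart. PCK2, the mitochondrial form of PEP carboxykinase, read 90.4 in kidney and 375 in liver, and SLC37A4, the partner transporter of glucose-6-phosphatase, read 144 in kidney and 1453 in liver. PCK1 and FBP1 were not analysed here under those symbols. Among 15 detoxification genes 3 were at least 2-fold above the mean of the others (4.86% over all genes), with a list median of 0.05. GSTA1, a glutathione transferase, read 376 in kidney and 433 in both liver and lung, GSR, glutathione reductase, read 319 in kidney and 166 in liver, and ALDH1A1, a retinal dehydrogenase, read 471 in kidney and 455 in lung. GSTM1 differed by -0.99 and was low in kidney by its brighter probe set. Its other probe set differed by -0.02, at 169 in kidney against 130 to 234.

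Segments beyond the proximal tubule were marked by few genes each. In the thick ascending limb list CLDN10, a claudin of the cation path between cells, read 1742 in kidney, against 742 in brain, 394 in heart, 76.9 in liver, 214 in lung, 51.6 in muscle and 74.5 in spleen, and was kidney-high by 1.16 over brain. The other 5 genes lay within 2-fold of the mean, as did 5919 of all 6359 genes, and the list median was -0.24. KCNJ1, the potassium channel ROMK, read 37.3 in kidney and 298 in brain. CASR, the calcium-sensing receptor, read 209 in kidney and 207 in heart, a difference of 0.01. EGF, a growth factor of the distal nephron, read 8.14 in kidney and 334 in liver. UMOD and SLC12A1, which define this segment, were not analysed here under those symbols.

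The distal convoluted and connecting tubule list had a median of 0.62 over 7 genes. At least 2-fold above the mean of the others were 2 of them (4.86% over all genes). SLC12A3, the thiazide-sensitive sodium chloride transporter, read 419 in kidney and 325 in lung by its brighter probe set and 112 in kidney and 205 in liver by the other. PVALB, a calcium-binding protein of the early distal tubule, read 417 in kidney and 289 in brain. ATP2B4, a plasma membrane calcium pump, read 579 in kidney and 635 in liver by its brightest probe set. Its other probe sets read 53.3 and 41.8 in kidney and differed from the mean of the others by -0.62 and -0.58. No gene of this list was kidney-high, against 0.833% of all genes.

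Among 8 collecting duct genes SCNN1A was kidney-high (0.833% over all genes). This alpha subunit of the epithelial sodium channel read 299 in kidney, against 11.6 in brain, 3 in heart, 0.440 in liver, 33.8 in lung, 6.90 in muscle and 0.892 in spleen, a difference of 1.81. MUC1, a mucin of the apical membrane, read 601 in kidney, 364 in lung and at most 53.9 elsewhere, and its other probe set was brightest in lung. SCNN1G, the gamma subunit, read 91.0 in kidney against 72.6 to 147. AQP4, a basolateral water channel, read 27.1 in kidney and 1200.4 in brain. The list median was -0.08. None of the 4 intercalated cell genes, CA12, RHBG, SLC4A1 and CA2, was brightest in kidney, against 12.7% of all genes. Their median was -0.02, and AQP2 and ATP6V1B1 were not analysed here under those symbols.

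FXYD2, the gamma subunit that tunes the sodium pump, was near the top of all genes. It read 396 in kidney and 6.38 to 16.5 in the other tissues, a difference of 2.40. The pump's beta subunit ATP1B1 was not kidney-high, at 1392 in kidney and 1539 in heart by its brighter probe set and 889 in kidney and 510.1 in heart by the other. The median of the 5 sodium pump genes was -0.17. The other FXYD members listed were not high, since FXYD1 read 125 in kidney and 535 in heart and FXYD3 180.4 in kidney and 241 in brain. For the proton pump, which acidifies urine and organelles, 1 of 11 subunits was at least 2-fold above the mean of the others (4.86% over all genes). It was ATP6V1A, with 891 in kidney and 1445 in brain, and the list median was 0.35.

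Glomerular genes differed little from the mean of the other tissues. All 9 lay within 2-fold of it, as did 5919 of all 6359 genes. Their median was 0.26, against -0.03 over all genes. COL4A5, a chain of the glomerular basement membrane, was the 1 that was brightest in kidney, at 248 in kidney and 181 in lung. PTPRO, a podocyte phosphatase, read 221 in kidney and 266 in muscle by its brighter probe set, and SYNPO, synaptopodin, read 412 in kidney and 476 in spleen.

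Receptors and hormones of mineral balance included a pair of wide gaps. PTH1R, the parathyroid hormone receptor, read 476 in kidney, against 23.7 in brain, 23.8 in heart, 51.7 in liver, 25.8 in lung, 24.6 in muscle and 32.6 in spleen. The 6 others lay close together and kidney stood 2.15 above liver. STC1, a secreted regulator of phosphate transport, read 659 against 4.69 to 92.5 by its brightest probe set (2.15), while 2 further probe sets lay 0.84 above and 1.80 below the brightest other tissue. CYP27B1, which activates vitamin D, read 299 in kidney and 244 in lung, and AVPR1A, a vasopressin receptor, 227 in kidney and 124 in muscle. Of 10 genes of this list 2 were at least 2-fold above the mean of the others (4.86% over all genes). As far below was 1 (2.06% over all genes), and the median was 0.10. IGF1 was the low gene, at 59.2 in kidney, 1988 in spleen and 114 or more in each of the other 5, and 2 further probe sets differed from the mean by -0.20 and -0.72. CYP24A1 and KL were not analysed here under those symbols.

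Transcription factors of nephron development included several kidney-high genes. EMX2, a homeobox factor of the ureteric bud, read 542 in kidney, against 201 in brain, 3.21 in heart, 0.187 in liver, 2.77 in lung, 20.9 in muscle and 0.372 in spleen. Kidney and brain were high and the other 5 low, and kidney lay 1.17 above brain. SALL1, a zinc finger factor of nephron progenitors, read 433 in kidney, 119.9 in liver and 62.3 in brain, and at most 23.2 in the other 4. HOXD9, a posterior homeobox factor, read 521 in kidney, 176 in muscle and at most 29.2 in the other 5.

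Of 20 analysed genes of this list 11 were brightest in kidney (12.7% over all genes) and 3 were kidney-high (0.833%). At least 2-fold above the mean of the others were 9 (4.86% over all genes) and at least 2-fold below 1 (2.06%). The median was 0.62. Homeobox members HOXC6, HOXB5 and HOXB7 differed from the mean by 1.27, 1.15 and 1.04, and the nuclear receptor ESRRG by 1.36. The low gene was LHX1, which read near 0 in 6 tissues and 8428 in liver. These HOXB genes and LHX1 were named after their values were seen.

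PAX2 and PAX8, paired-box factors of the nephron, did not give a uniform result. PAX2 read 419 in kidney, against 6.71 in brain, 9.02 in heart, 20.3 in liver, 6.67 in lung, 1.78 in muscle and 15.2 in spleen by a kidney-high probe set (2.41 log2). Its brighter probe set read 142 in kidney and 154 to 201 in the others, and so was lowest in kidney. PAX8 had 5 probe sets, whose differences from the mean of the others ran from -0.40 to 0.38, the last of them at 275 in kidney against 166 to 230.1. HNF4A was not analysed here under that symbol.

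Of 8 epithelial junction genes CDH16 was kidney-high (0.833% over all genes). At least 2-fold above the mean of the others were 2 (4.86% over all genes), and the median was 0.33. CDH16, a cadherin named for the kidney, read 295 in kidney and at most 1.25 elsewhere, a difference of 2.32. TJP1, a tight junction scaffold, read 766 in kidney and 558 in brain, and CDH1, E-cadherin, read 328 in kidney against 209 to 401. In the list of medullary osmolytes CLU, clusterin, read 504 in kidney and 168 in brain (1.26), and SLC6A12, the betaine transporter, read 336 in kidney and 239 in brain. That list had 3 of 6 genes at least 2-fold above the mean of the others (4.86% over all genes) and a median of 0.71. These were CLU, SLC6A12 and AQP1, the water channel that also stands in the apical scaffold list. The 8 cilium and cystic kidney genes all lay within 2-fold of the mean, as did 5919 of all 6359 genes, with a median of 0.08.

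**Figure D4:**
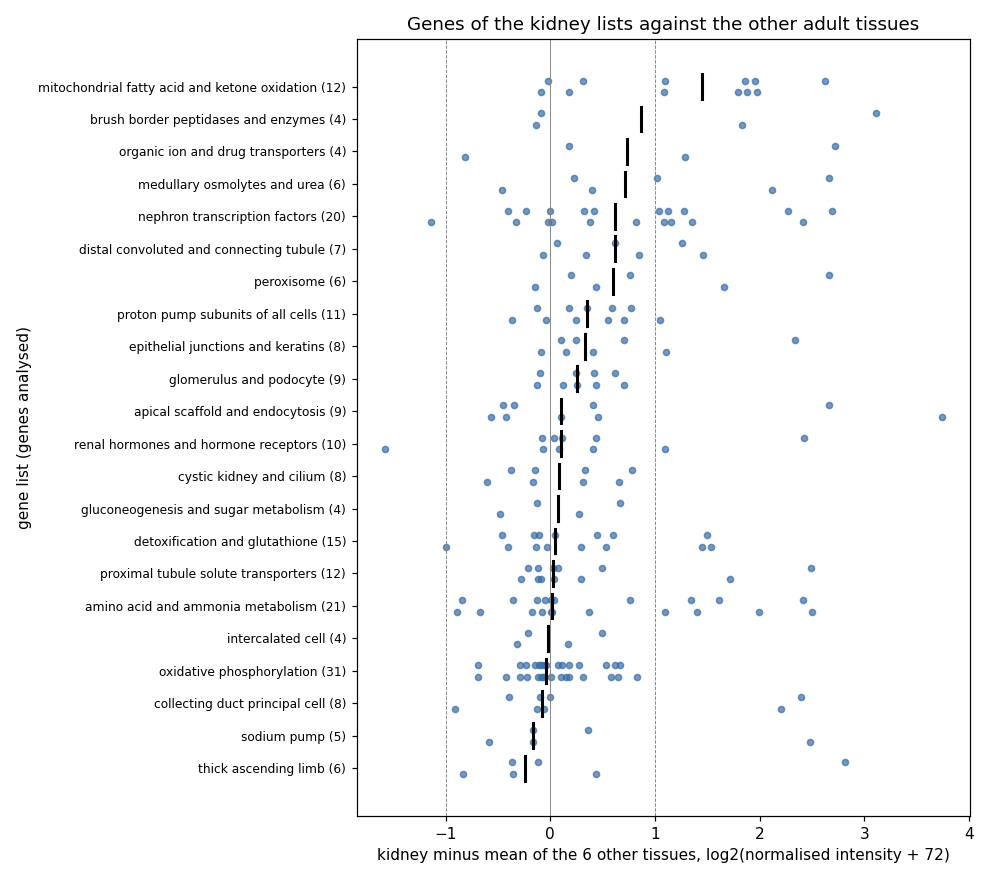
Each point is a gene of 1 of the 22 kidney lists, by its brightest probe set, and the x axis gives kidney minus the mean of the 6 other tissues in log2(normalised intensity + 72), with the list median as a bar and the number of genes analysed in brackets. Medians run from 1.45 for fatty acid and ketone oxidation to -0.24 for the thick ascending limb, and most lists hold 1 to 3 genes far to the right of a group near 0.

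Over the 22 kidney lists together 464 gene entries were listed, 230 had values and 219 were analysed. Of these 219, which count a gene once for each list it stands in, 59 were brightest in kidney (12.7% over all genes), 19 were kidney-high (0.833% over all genes), 50 were at least 2-fold above the mean of the others (4.86% over all genes) and 2 as far below (2.06% over all genes). The summed intensity of a list was highest in kidney for 10 of the 22 kidney lists and for 1 of the 13 lists of other tissues, that of endothelial markers, at 974 in kidney and 973 in liver. AQP1, at 5038 in kidney, was part of the kidney sum of both the apical scaffold list, at 7138, and the medullary list, at 6445. The lists were chosen with results of these data known, so the counts describe them and are no support for them. SLC22A6, SLC22A5, SLC3A1, PDZK1, SCNN1A, CDH16, FXYD2, PTH1R and SALL1 passed the brightness filter through kidney alone, and so had to be brightest there.

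The widest gaps of all belonged to genes that no kidney list held. L3MBTL1, a chromatin reader, read 8428 in kidney and at most 11.1 elsewhere by 1 probe set (6.68), and was the brightest probe set of the kidney array, at 20150 as deposited. Its other probe set read 108 in kidney and 269 in heart, and so was not high in kidney. GOLGA8N, a golgin-like gene, read 6224 against at most 0.905, and CINP, a cell cycle checkpoint protein, read 3228 against at most 5.51. GOLGA8N and CINP had a single analysed probe set each, so neither has a second reading.

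ZCCHC14, a zinc finger protein, read 586 against 1.76 to 13.2, and TRIM13, a ubiquitin ligase of the endoplasmic reticulum, read 827 in kidney and 89.0 in brain. GRP, gastrin-releasing peptide, read 338 in kidney and under 0.1 elsewhere. PTER, related to phosphotriesterases, read 631 against 4.22 to 98.2. IGFBP5, a secreted binding protein of insulin-like growth factors, read 1988 in kidney and 499.6 in heart (1.85), and its other probe set lay 0.22 below the brightest other tissue. CD24, a surface glycoprotein of epithelial progenitors, was brightest in kidney by its 3 analysed probe sets, at 1.62, 1.03 and 0.80 above the next tissue. A further CD24 probe set, under the brightness filter, read 99.7 in kidney and 133 in muscle. MPP2, a membrane scaffold, read 441 against 48.7 to 97.7.

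Some kidney-high genes below the 20 widest gaps were picked after their values were seen. GCDH, of lysine breakdown, read 230.1 against at most 35.8, RENBP, an epimerase that binds renin, 279.9 in kidney and 90.8 in spleen, and TNFSF11, the cytokine RANKL, 516 in kidney and 127 in spleen. MSR1, a scavenger receptor of macrophages, read 1141 in kidney and 473 in brain. Of the 11 macrophage markers it was the 1 brightest in kidney. Their summed intensity was 1947 in kidney, 5952 in spleen and 1023 to 3736 in the other 5, and LYZ and C1QB read 3.11 and 30.7 in kidney. The part of macrophage RNA in the MSR1 value was not tested. Just under the 2-fold limit lay LAP3 and LAMP2 at 0.99, SRPX and HOXB7 at 0.97, SLC5A6 at 0.95 and GNG12 at 0.94, and just inside it TMCO6 at 1.01.

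Kidney shared more bright probe sets with liver than with any other single tissue. Kidney and liver were both at least 2-fold above the other 5 tissues for 35 probe sets (0.37%), and liver was the brighter in 24 of them. The same count was 12 with brain (0.127%), 5 with lung (0.0528%), 4 with muscle (0.0422%), 2 with spleen (0.0211%) and 1 with heart (0.0106%). These pairs were examined after the values were seen, and the liver array also had the most probe sets of its own. The liver markers TF, FGG, FGB and APOH were among the 35.

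DIO1, the deiodinase that activates thyroid hormone, read 431 in kidney, 611 in liver and at most 3.03 elsewhere. BBOX1, the last enzyme of carnitine synthesis, read 295 in kidney and 317 in liver, and DPYS, of pyrimidine breakdown, 177 and 406. SLC27A2, a fatty acid transporter and acyl-CoA synthetase, read 316 and 193, with kidney the brighter, and its other probe set 442 and 3.78. CFI, complement factor I, read 1026 and 1294, and UGT2B28, a glucuronosyltransferase, 395 and 1339. Metallothioneins, which bind zinc and copper, made up 7 of the 35 probe sets, and all 13 of their analysed probe sets were brightest in liver. MT1G read 2157 in kidney and 2773 in liver by 1 probe set, and 52.8 and 438 by another. Members of this family are close copies, so which of them was read is uncertain.

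With brain, kidney shared L1CAM, an adhesion molecule of axons and collecting ducts, at 359 against 938 in brain, TRHDE, a peptidase, and EMX2 and SLC4A4. With lung it shared MUC1, PEX19 (758 and 534) and SELENBP1 (526 and 268). With heart it shared BDH1 alone. Over all 9469 probe sets the Spearman correlation of kidney was 0.656 with spleen, 0.617 with lung, 0.595 with brain, 0.588 with heart, 0.519 with muscle and 0.445 with liver, as a description of arrays that share their probes. Kidney therefore shared the most paired bright probe sets with the tissue whose overall rank order was least like its own. Against liver alone, 158 probe sets (1.67%) were at least 4-fold higher in kidney and 402 (4.25%) at least 4-fold lower. Against brain the counts were 103 (1.09%) and 264 (2.79%), against heart 135 (1.43%) and 209 (2.21%), and against muscle 187 (1.97%) and 242 (2.56%). Lung and spleen were nearest to balance, with 124 (1.31%) higher and 152 (1.61%) lower for lung and 114 (1.2%) each way for spleen.

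Few transcripts were low in kidney alone. The 1 kidney-low probe set belonged to MYL4, an atrial myosin light chain, and read 46.1 in kidney against 167 to 575, while the brightest MYL4 probe set was not kidney-low. Genes far below the mean of the other tissues were picked after their values were seen. LGALS1, galectin-1 of connective tissue and immune cells, read 85.1 in kidney, against 323 in brain, 1590.2 in heart, 188 in liver, 1482 in lung, 921 in muscle and 1102 in spleen, a difference of -2.39 from the mean. JUN, an immediate early transcription factor, read 108 in kidney against 228 to 1736 (-2.24), and its 3 other probe sets differed by -1.07, -0.56 and -0.47. GYG1, which primes glycogen synthesis, read 20.8 against 63.3 to 691, and its other probe set differed by -0.68. TMSB10, an actin-binding thymosin, differed by -1.52 and PRKACA, a catalytic subunit of protein kinase A, by -1.45.

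Probe sets of 1 gene read the same RNA on the same array, so their agreement speaks of the probes and replicates nothing. Among genes whose brightest probe set was kidney-high, 7 of 14 other probe sets (50%) were brightest in kidney. Over all genes with several probe sets it was 183 of 1864 (9.82%). The 14 belong to 11 genes and are not independent, and 3 of them passed the brightness filter through kidney alone and so had to be brightest there. The shares are therefore a description, with no test. Of 18 genes with several analysed probe sets and at least 1 that was kidney-high, 6 were brightest in kidney by every analysed probe set, namely AHCYL2, CD24, CEACAM1, DPP4, ENPEP and MYO6. In 9 at least 1 probe set was below the mean of the other tissues, namely L3MBTL1, PAX2, DAB2, STC1, MME, TRIM10, MYO10, HADH and MTSS1. For DAB2, STC1 and MME the probe set below the mean was brightest in muscle, and highest on the third embryo array. Its embryo readings were 55.7, 72.9 and 355 for DAB2, 51.4, 69.4 and 373 for STC1, and 117, 127 and 338 for MME. For HADH and PAX2 it was brightest in muscle without such a rise. For L3MBTL1, TRIM10, MYO10 and MTSS1 it was brightest in heart or liver. Why these probe sets differ, and which probe set of such a gene follows the bovine transcript, was not tested.

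The same held at the looser limit. For genes at least 2-fold above the mean of the others by their brightest probe set, 75 of 115 other probe sets (65.2%) were above the mean too, 19 (16.5%) at least 2-fold, and 1 was at least 2-fold below. Over all genes with several probe sets 42.0% were above the mean and 3.54% at least 2-fold above. For genes at least 2-fold below the mean, 6 of 55 other probe sets (10.9%) were as far below, against 1.88% over all. The median Pearson correlation over the 7 tissues between a gene's brightest and other probe sets was 0.395 for the kidney-high genes (14 pairs) and 0.289 over all 1864, as a description of points that share their arrays.

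**Figure D5:**
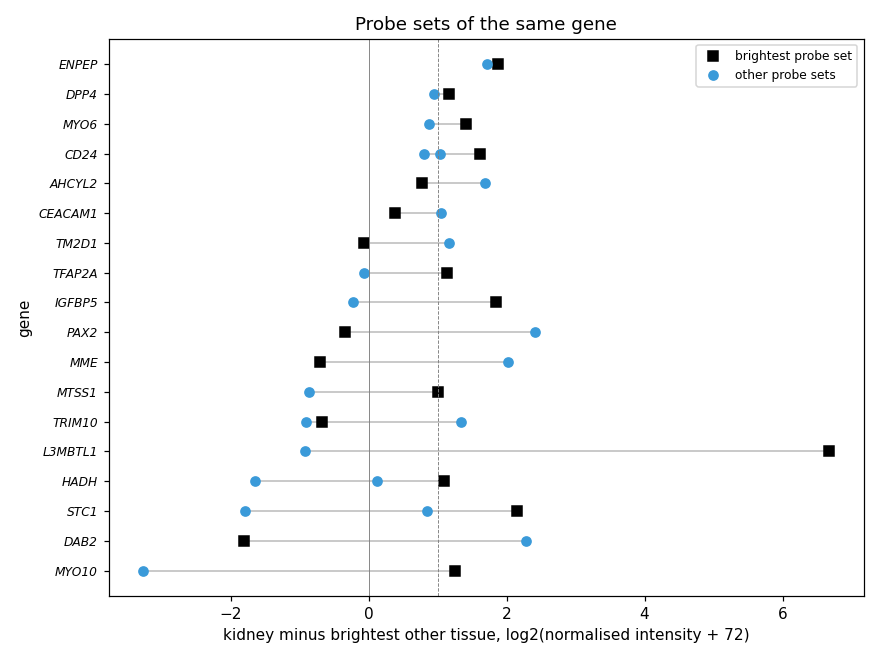
Each row is 1 of the 18 genes with several analysed probe sets and at least 1 that was kidney-high, and the x axis gives kidney minus the brightest other tissue in log2(normalised intensity + 72), with the 2-fold limit as a dashed line. The black square is the brightest probe set and blue points are the others. The probe sets of a gene lie above 0 and within 1 log2 of each other for AHCYL2, CD24, CEACAM1, DPP4, ENPEP and MYO6. They lie on both sides of 0 for every other gene, namely L3MBTL1, STC1, HADH, DAB2, MYO10, IGFBP5, MME, MTSS1, PAX2, TFAP2A, TM2D1 and TRIM10.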

How the data were processed

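Total RNA of bovine tissues and embryo pools was hybridised across species to a human array, per the labels, which alone assign each array to its tissue. The authors deposited 1 linear intensity per probe set and array. Not given in the sources used here are the software, background correction, scaling and genome build, and the reason why 12064 of 22283 probe sets were blank. The 33 manufacturer's controls were left out. Of the remaining 10186 probe sets 8847 had 1 symbol in the platform annotation, 479 several and 860 none, and only the first were named. Of the 6359 genes analysed 6003 symbols (94.4%) stood in the bovine RefSeq table. No sequences or coordinates were used. Arrays have no depth, and their number limits the precision.

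The 10 arrays were quantile normalized together and 72, the median of their 25th percentiles, was added before log2, in Python 3.11.15 with pandas 2.3.3, numpy 2.4.6 and scipy 1.17.1. Quantile normalization gives every array the same distribution and hides differences in total signal. A gene is represented by its brightest analysed probe set over the 7 adult arrays unless another is named. The calculation was checked on simulated data.

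Named genes were the 20 kidney-high genes furthest above the next tissue, up to 12 kidney-low genes, up to 5 of each kidney list furthest from the mean of the others, genes whose probe sets agreed or disagreed, and a list of nephron genes given whatever their values, and any other gene was picked after its values were seen. Kidney, its genes and all 35 lists were chosen with earlier results of these data known. Other settings tried were deposited values without normalization, a common median, normalization of 7 arrays, no offset or a larger offset, 3 other filters, another reference, a 4-fold limit, genes in place of probe sets, another probe set per gene and each other tissue left out. Figures were drawn with matplotlib 3.10.9.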

Additional observations from a re-analysis of the deposited data

Results flagged for a closer look

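The kidney comparison did not use the embryo arrays. For a few kidney-high probe sets all 3 of them lay at least 2-fold above every adult tissue other than kidney. Others lay above by less. TFAP2A read 279, 352 and 288 against 118 in brain, and RAD50 781, 882 and 545 against 368 in brain. For the brighter ENPEP probe set the lowest of the 3 embryo arrays lay 1.61 log2 above the brightest adult tissue other than kidney, with readings of 881, 796 and 793. For the dimmer ENPEP probe set the same difference was 1.0, with readings of 199, 165 and 119. For the brightest CD24 probe set it was 1.09, with readings of 724, 705 and 509. ENPEP and CD24 were therefore not confined to kidney over the 10 arrays. Groups of 1 array could not be examined for outlying samples.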

How the results depend on the processing

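No paired analysis was possible because each tissue had 1 array and no replicate numbers link the tissues. The 77 kidney-high probe sets became 28 with an offset 4 times larger, 32 with a filter of at least 3 of 10 arrays, 19 with a 4-fold limit and 426 against the mean of the others, and 79 to 128 with 1 other tissue left out, with 128 without liver. As deposited they were 54, of which 52 were among the 77, and with no offset 107, which held all 77. At the 2-fold limit the 20 genes named as kidney-high kept the call wherever they were analysed, except 2 with the larger offset, but 6 alone passed the filter of 3 arrays. Leaving out a tissue, the mean as reference and no offset can only widen a kidney-high gap, and another filter leaves it unchanged. Those settings could not remove a call from an analysed probe set, so calls kept there are no support. At the 4-fold limit 13 of the 20 kept it. The 1 kidney-low probe set became 4 as deposited, 86 with no offset and 189 against the mean of the others. It became 0 with a common median, with normalization of the 7 adult arrays, with the larger offset, with the 4-fold limit and by genes, and 1 to 10 with 1 tissue left out, at 10 without brain, 7 without liver and 3 without muscle. The cause was not tested. The 15 nephron markers brightest in kidney became 8 with the filter of 3 arrays, through fewer genes analysed, and 13 to 17 otherwise. The agreement of 50% ran from 41.7% to 66.7%. Of 166 values of named genes and list medians, 30 changed sign in some setting, none of them at least 2-fold to begin with. With the widest-spread probe set 10 did, among them PAX2, DAB2 and MME, which went from -0.24, -0.42 and -0.14 to 2.59, 2.45 and 2.12. Of the 22 list medians, that of proximal solute transporters alone changed sign between normalizations, from 0.03 to -0.07 as deposited. Probe sets near 0 are limited by background, and 1 array per tissue leaves the spread of kidney unknown.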

Other observations

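Markers of cell types that every organ holds were uneven in kidney, and the genes given here were picked after their values were seen. FBLN1, a matrix protein of basement membranes, read 912 in kidney and 758 in lung, its second probe set 496 in kidney and 456 in lung, and the third 122 in kidney and 250.4 in heart. It was the 1 of 9 fibroblast genes brightest in kidney, and the median of that list was -0.17. MYLK, the kinase of myosin in smooth muscle, read 576 in kidney, 953 in lung and 769 in spleen, and was at least 2-fold above the mean of the others. None of the 7 smooth muscle genes was brightest in kidney, against 12.7% of all genes. ERG, an endothelial transcription factor, read 435 in kidney and 379 in lung, and KDR, a receptor for vascular growth factor, 2.07 in kidney and 331 in liver. PPARG, the fat cell receptor, read 554 in kidney and 539 in brain, and HBB, beta globin, 242 in kidney and 202 in heart, while the other HBB probe set read 68.2 in kidney and 286 in spleen.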
